A study of Saccharomyces cerevisiae with 24 samples.

Results

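Domain II of the yeast 25S rRNA carries 11 listed pseudouridines (Ψ), at U776, U960, U966, U986, U990, U1004, U1042, U1052, U1056, U1110 and U1124, counted from the 5′ end of the mature rRNA. These 11 positions, of 5475 in the rRNA reference, were taken from the known modification map of yeast rRNA. They were not selected by the values described here, but earlier results of these data were known when they were chosen. Together with 5 nucleotides on either side, they were followed in nanopore direct RNA sequencing libraries of *Saccharomyces cerevisiae* BY4741.

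In this assay the RNA strand itself passes through a pore, and a modified base can disturb the ionic current and the base call. The error tables (20 libraries) give the reads over each position and the share of them with a mismatched base, an insertion or a deletion. The current tables (8 libraries) give a mean current, in picoampere (pA), for each run of 5 bases (5-mer). All cells were BY4741 grown in YPD medium at 30 °C. The strains were wild type (WT) and 3 deletion strains, snR3KO, snR34KO and snR36KO, in each of which a kanMX4 cassette replaced a small nucleolar RNA (snoRNA) gene. Each strain had 2 total-RNA libraries with current values, and only replicate 1 was used for errors. Fractions F1, F2, F3 and F4 of a sucrose gradient came from untreated wild-type cells. The remaining wild-type cultures were left untreated or given 1 mM hydrogen peroxide for 30 min, and were sequenced as total RNA (input) and as pooled fractions 3-4. Each of these 8 groups had 2 libraries, from biological duplicates per the labels. RNA of strains and inputs was purified with a yeast RNA kit, and that of fractions came from cycloheximide-treated extracts, so a difference between those kinds of library cannot be told apart from preparation.

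Pseudouridine is a uridine whose base has been rotated and joined to the ribose through carbon instead of nitrogen. At the sites described here it is made by H/ACA snoRNPs. In these a snoRNA pairs with the rRNA on both sides of the target uridine and the enzyme Cbf5 carries out the isomerization. Domain II of the large subunit rRNA includes the GTPase-associated region, where translation factors meet the ribosome. From general knowledge, 9 guides serve the 11 sites. The snoRNA snR8 guides Ψ960 and Ψ986, snR5 guides Ψ1004 and Ψ1124, and the other sites have a guide each. None of them is guided by the snoRNAs deleted here.

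The sequences around the sites are shown because the surrounding bases, above all runs of U, bear on where an error is placed in an alignment. Each line runs 5′ to 3′ over 10 bases on either side, as the reference bases in the deposited tables (T for U), with the pseudouridine in capitals and its guide in brackets.
Ψ776 (snR80): ttcggatggaTttgagtaaga
Ψ960 (snR8): gaagtttcccTcaggatagca
Ψ966 (snR43): tccctcaggaTagcagaagct
Ψ986 (snR8): tcgtatcagtTttatgaggta
Ψ990 (snR49): atcagttttaTgaggtaaagc
Ψ1004 (snR5): gtaaagcgaaTgattagaggt
Ψ1042 (snR33): cttgacctatTctcaaacttt
Ψ1052 (snR81): tctcaaacttTaaatatgtaa
Ψ1056 (snR44): aaactttaaaTatgtaagaag
Ψ1110 (snR82): tgaagagcttTtagtgggcca
Ψ1124 (snR5): tgggccatttTtggtaagcag

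Ψ960, Ψ966, Ψ990, Ψ1004 and Ψ1056 are lone uridines. Ψ1042 is the last of 2 U and Ψ1052 the last of 3, whereas Ψ776 opens a run of 3. Ψ986 and Ψ1110 lie inside runs of 4, and Ψ1124 inside a run of 5. A missing base within such a run has no unique place in an alignment. Ψ986 and Ψ990, and likewise Ψ1052 and Ψ1056, are 4 nucleotides apart, so a 5-mer can hold both.

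Coverage at the 11 sites ran from a library median of 35 reads (F1 replicate 2) to 9320 (snR3KO replicate 1). In 15 libraries every site had at least 300 reads, and 5 were shallower, namely both F1 libraries, F3 replicate 2, F4 replicate 1 and peroxide-treated fractions 3-4 replicate 2. Where an interval is given for 1 library, it is the 95% Wilson interval, which covers no error beyond counting. As a check of the strain labels, the 6 sites elsewhere in the rRNA that the deleted snoRNAs guide had 1.78% to 8.84% mismatched reads in the strain lacking their guide. They had 17.8% to 70.9% in the other strain libraries.

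In WT replicate 1, 10 of the 11 pseudouridines had at least 10% mismatched reads, against 9.15% of 1180 uridines that lie at least 6 positions from any listed modified site. The median mismatch level was 34.3% over the 11 sites and 3.12% over those unmodified uridines. At least 10% insertions were present at 5 sites (15.7% of unmodified uridines) and at least 10% deletions at 5 sites (19.2%). The median of the mean base quality was 9.34 at the sites and 15.2 at unmodified uridines. For Ψ776, Ψ986, Ψ1004, Ψ1042, Ψ1052 and Ψ1124, no unmodified uridine reached the mismatch level of the site in that library. Ψ1110 and Ψ960 were the least distinct by mismatch, since 7.03% and 17.5% of unmodified uridines had as high a level.

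**Figure D1:**
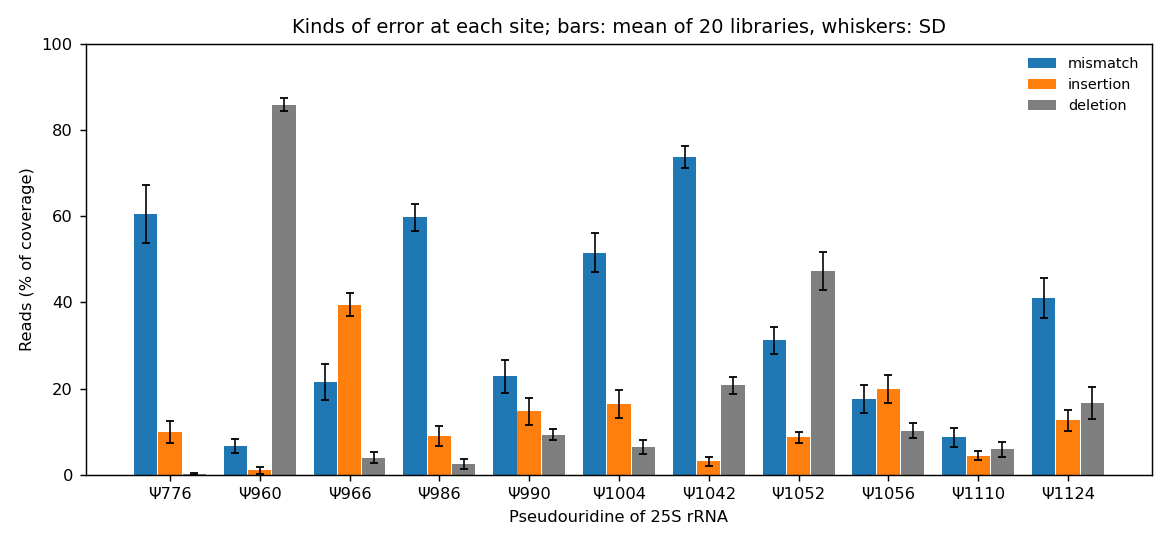
Percent of reads with a mismatch, an insertion or a deletion at each of the 11 pseudouridines of 25S domain II (bars, mean of 20 libraries; whiskers, SD). Deletions lead at Ψ960 (85.9%) and Ψ1052 (47.3%), insertions at Ψ966 (39.5%), and mismatches lead at Ψ776, Ψ986, Ψ990, Ψ1004, Ψ1042 and Ψ1124.

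The sites differed in which error they carried. Ψ1042 had the highest mismatch level, 73.8% ± 2.58 (SD, n = 20 libraries), and 72.9% in WT replicate 1 (71.7% to 74.0%). A further 20.8% ± 1.97 (SD, n = 20) of its reads were deletions. In WT replicate 1 they were 23.1%, and 31 of 176 unmodified runs of 2 U had as high a level at their last uridine. Of the reads with a base at Ψ1042, 93.1% ± 2.42 (SD, n = 20) did not read U, the highest share among the 11. The uridine before it, U1041, had 15.4% ± 4.23 (SD, n = 20) mismatches.

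Ψ776 had 60.6% ± 6.75 (SD, n = 20) mismatches and almost no deletions, at most 0.430% in any library. Its mismatch level was between 67.9% and 68.9% in the 4 strain libraries and between 56.4% and 59.5% in the 4 input libraries. The lowest levels of all 20 libraries were those of F1, 46.7% and 48.4%. Further away, U772 had 12.4% ± 2.66 (SD, n = 20) mismatches, and U778 at the end of the run had 15.9% ± 5.15 (SD, n = 20) deletions. In WT replicate 1 the deletion level of U778 was 13.2%, below the median of 14.4% for the last uridine of 53 unmodified runs of the same length.

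Ψ986 had 59.7% ± 3.20 (SD, n = 20) mismatches, and its errors continued downstream. The next uridine, U987, had 37.5% ± 3.48 (SD, n = 20) mismatches and was below Ψ986 in 20 of 20 libraries. U988 had 29.6% ± 2.41 (SD, n = 20) mismatches and 35.9% ± 4.96 (SD, n = 20) deletions. The 12 unmodified runs of 4 U had a highest mismatch level of at most 13.5% in WT replicate 1, where the highest in the Ψ986 run was 59.4%. Their last uridine had a median deletion level of 47.9%, so the 39.5% of U988 in WT replicate 1 lay within the range of such runs.

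Ψ1004 had 51.6% ± 4.61 (SD, n = 20) mismatches and 16.5% ± 3.23 (SD, n = 20) insertions. The adenosine before it, A1003, had 24.5% ± 3.02 (SD, n = 20) deletions, and G1005 after it had 16.7% ± 3.75 (SD, n = 20) insertions. Ψ990 had a lower mismatch level, 22.9% ± 3.83 (SD, n = 20), with 14.8% ± 3.18 (SD, n = 20) insertions, and its neighbour G991 had 13.0% ± 2.75 (SD, n = 20) insertions.

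Ψ960 was the site of deletions. On average 85.9% ± 1.60 (SD, n = 20) of its reads lacked the base, and only 6.67% ± 1.57 (SD, n = 20) of reads were mismatched. The range of its deletion level was 82.7% to 88.9%, and no unmodified uridine reached the WT replicate 1 value of 86.2%. The cytidine after it, C961, was deleted in 56.6% ± 5.17 (SD, n = 20) of reads and in fewer reads than Ψ960 in 20 of 20 libraries. Among reads with a base at Ψ960, 47.6% ± 11.0 (SD, n = 20) were mismatched, so the low mismatch level holds only as a share of all reads.

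Ψ966, 6 nucleotides downstream, was the site of insertions, with 39.5% ± 2.71 (SD, n = 20). These exceeded its mismatches, 21.5% ± 4.18 (SD, n = 20), in 20 of 20 libraries. The adenosine before it, A965, had 33.9% ± 3.38 (SD, n = 20) insertions and 29.2% ± 4.59 (SD, n = 20) deletions. C969 had 10.3% ± 2.16 (SD, n = 20) mismatches.

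At Ψ1052, 47.3% ± 4.33 (SD, n = 20) of reads were deletions and 31.3% ± 3.13 (SD, n = 20) were mismatches. In WT replicate 1 deletions were 47.6%, and 3 of 53 unmodified runs of 3 U had as high a level at their last uridine. The strongest mismatch signal was at the uridine before Ψ1052. U1051 had 54.0% ± 5.97 (SD, n = 20) mismatches and was above Ψ1052 in 20 of 20 libraries, by 22.7 ± 7.13 percentage points (SD, n = 20). The highest mismatch in any of the 53 unmodified runs of 3 U was 27.5% in WT replicate 1, against 52.2% at U1051. Ψ1056 had 17.7% ± 3.20 (SD, n = 20) mismatches, 19.9% ± 3.19 (SD, n = 20) insertions and 10.3% ± 1.66 (SD, n = 20) deletions, and insertions exceeded mismatches in 13 of 20 libraries. A1055 before it had 25.3% ± 3.68 (SD, n = 20) deletions, and A1057 after it had 16.5% ± 2.75 (SD, n = 20) insertions.

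Ψ1110 stood out least, with 8.67% ± 2.23 (SD, n = 20) mismatches, 5.92% ± 1.74 (SD, n = 20) deletions and 4.43% ± 1.09 (SD, n = 20) insertions. Its mean base quality in WT replicate 1, 14.9, was close to the median of unmodified uridines. Its mismatch level in that library, 11.1%, was the highest of its run. The highest level per run in 12 unmodified runs of 4 U had a median of 8.68% and reached 13.5%. The next uridine, U1111, was deleted in 59.0% ± 3.86 (SD, n = 20) of reads. In WT replicate 1 that level was 62.4%, which lay within the 20.6% to 68.5% found at the end of 12 unmodified runs of 4 U, and 1 of those runs was as high.

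Ψ1124 had 41.0% ± 4.67 (SD, n = 20) mismatches and 16.6% ± 3.76 (SD, n = 20) deletions. U1125 after it had 32.8% ± 4.07 (SD, n = 20) deletions and 12.1% ± 1.64 (SD, n = 20) insertions, and U1122 had 13.9% ± 2.21 (SD, n = 20) mismatches. Only 1 unmodified run of 5 U was available, with 10.9% as its highest mismatch level and 53.1% deletions at its last base in WT replicate 1.

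**Figure D2:**
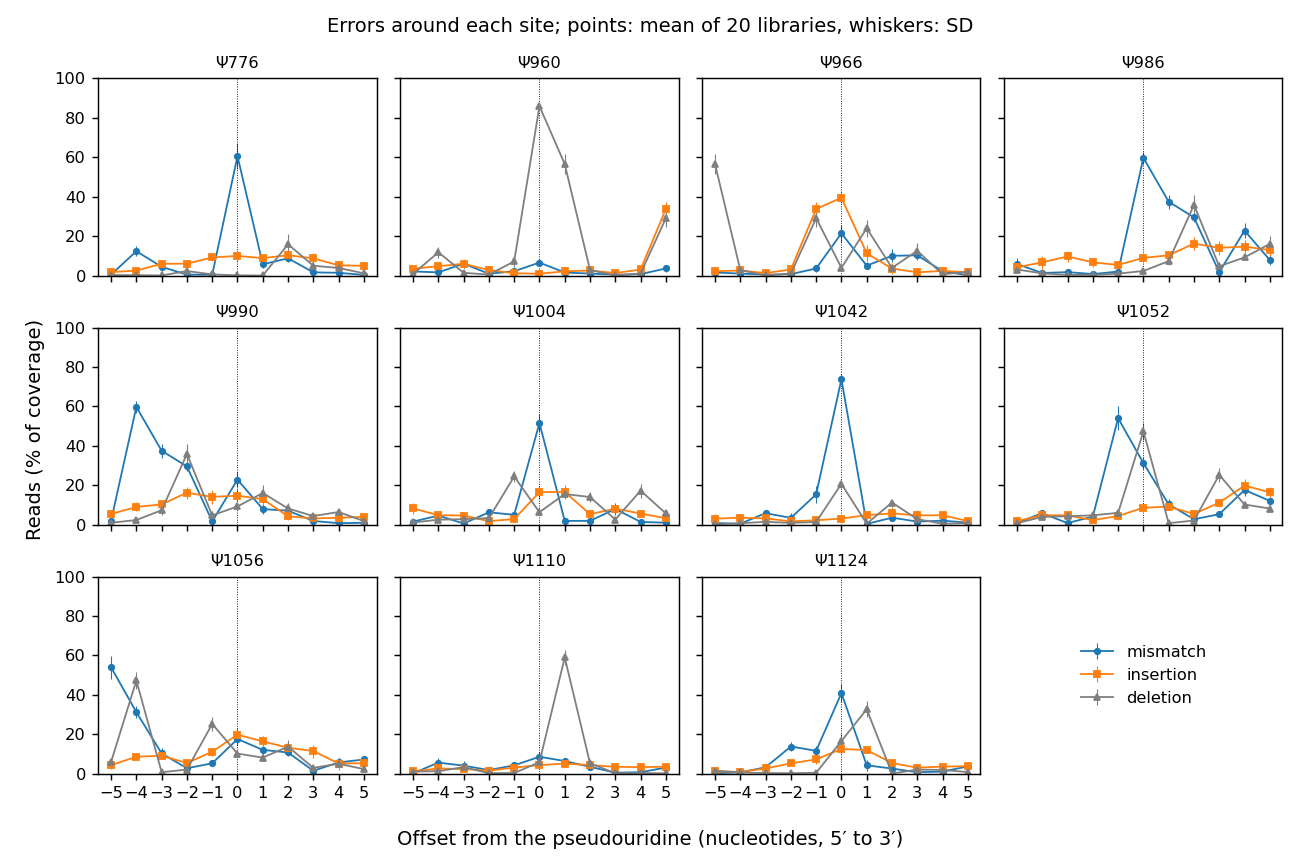
Percent of reads with a mismatch, an insertion or a deletion from 5 nucleotides before to 5 after each pseudouridine (points, mean of 20 libraries; whiskers, SD). The mismatch peak lies on the pseudouridine at Ψ776, Ψ1004, Ψ1042 and Ψ1124, begins at Ψ986 and runs downstream, and lies on the base before Ψ1052. Around Ψ1110 the main error is the deletion 1 nucleotide downstream (59.0%).

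The order of the sites by mismatch level was Ψ1042, Ψ776, Ψ986, Ψ1004, Ψ1124, Ψ1052, Ψ990, Ψ966, Ψ1056, Ψ1110 and Ψ960. Neighbours in that order were the same way round in at least 18 of 20 libraries, except for Ψ776 and Ψ986 (12 of 20) and Ψ990 and Ψ966 (14 of 20). The mean difference was 0.880 ± 7.00 points (SD, n = 20) for the former pair and 1.37 ± 6.24 points (SD, n = 20) for the latter, within the spread between libraries. Ψ966 and Ψ1056 kept their order in 18 of 20 libraries, but their difference of 3.84 ± 6.42 points (SD, n = 20) was also within that spread. So was the difference of 2.00 ± 2.32 points (SD, n = 20) between Ψ1110 and Ψ960, in order in 19 of 20. In the 15 libraries with at least 300 reads at every site, Ψ966 was above Ψ1056 and Ψ1110 above Ψ960 in 15 of 15. There the order held in 9 of 15 for Ψ776 and Ψ986 and in 12 of 15 for Ψ990 and Ψ966. The 20 libraries are of different kinds and depths, so these SDs do not measure spread between replicates of 1 condition. In the 4 strain libraries Ψ776 lay above Ψ986, at 67.9% to 68.9% against 59.4% to 61.0%. In the 4 input libraries the levels of the pair overlapped, at 56.4% to 59.5% against 57.1% to 58.4%. As a description, Spearman's rank correlation of the 11 levels in WT replicate 1 with those of each other library was 0.927 to 1, with a median of 0.991. These libraries share the reference and the base composition around each site.

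**Figure D3:**
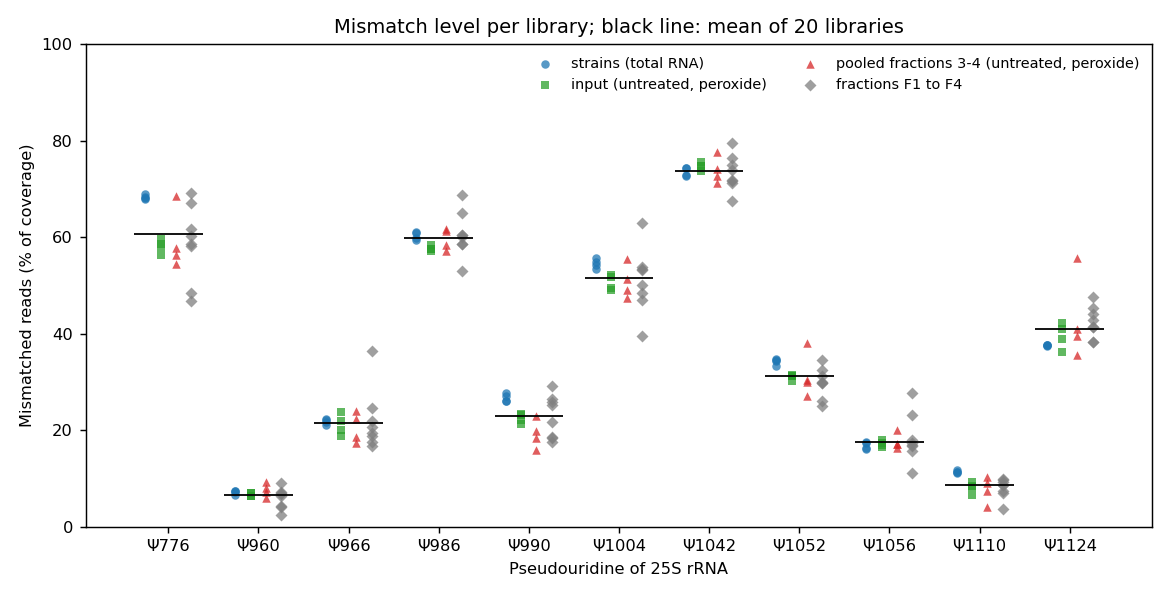
Mismatch level (percent of reads) at each of the 11 pseudouridines in each of 20 libraries, with colour and marker giving the kind of library and the black line the mean. Ψ1042 is highest (mean 73.8%) and Ψ960 has the lowest mean (6.67%, within the spread of its difference from Ψ1110), and the 4 strain libraries lie above the 4 input libraries at Ψ776 by 10.2 points on average.

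The deletion strains addressed whether loss of a snoRNA changes modification at particular sites. At the 11 domain II pseudouridines the 4 strain libraries lay close together. The range from the lowest to the highest of the 4 was 0.207 points at Ψ1124 and at most 2.13 points, at Ψ1004, with a median of 1.44 points. The largest difference from WT was 1.42 points at Ψ986 in snR3KO, 1.11 points at Ψ1056 in snR34KO and 1.67 points at Ψ986 in snR36KO. None of the 11 differed from WT by 10 points or more in any strain. Of 1447 uridines 0.346%, 0.276% and 0.138% did in snR3KO, snR34KO and snR36KO, and these include sites guided by the deleted snoRNAs. At such low shares a count of 0 among 11 sites says little. The median absolute difference over the sites was 0.299, 0.650 and 0.584 points in these strains in turn. Over all uridines it was 0.197, 0.235 and 0.255 points, at unlike mismatch levels and so not directly comparable. These comparisons rest on 1 library per strain and have no test.

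All 4 strain libraries exceeded all 4 input libraries in mismatch level at 6 sites, Ψ776, Ψ986, Ψ990, Ψ1004, Ψ1052 and Ψ1110, and were below them at none. Among 1435 uridines 42.4% were above in this way and 5.57% below, so the share at the sites was near that of uridines in general. The gap of 10.2 points at Ψ776 (68.3% against 58.1%) was the widest of the 11, and the next was 4.28 points at Ψ990. For deletions, Ψ1042, Ψ1110 and Ψ1124 were higher in all strain libraries and Ψ1004 lower, where 34.1% and 6.34% of uridines did so. At Ψ1124 deletions took 22.5% ± 0.724 (SD, n = 4) of reads in the strain libraries and 14.6% ± 3.78 (SD, n = 4) in the inputs. Within the peroxide experiment the Ψ1124 deletion level went with the replicate number. It was 11.0% to 12.0% in the 4 libraries of replicate 1 and 13.5% to 18.2% in those of replicate 2, and the 13.5% came from the library with 52 reads there. What the replicate numbers share in preparation is not in the labels, and its part in the result was not tested.

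The gradient fractions addressed whether the rRNA of ribosomes in different parts of the gradient differs in modification. No pseudouridine of domain II differed between F1, F2, F3 and F4 at an adjusted p under 0.05. At every position mismatched and other reads entered a logistic model with quasi-binomial variance, and p-values were adjusted by the Benjamini-Hochberg method over all 5305 positions tested. In the test of any difference among the 4 fractions 0 of 11 sites and 0% of positions were called, while 2 sites (Ψ1110 and Ψ1042) and 862 positions had an unadjusted p under 0.05. The median spread between the highest and lowest fraction mean was 4.06 points over the sites and 2.08 points over all uridines. The sites lie at higher mismatch levels than uridines in general, where counting alone spreads more in points, so these medians are not directly comparable. With limma on the logits of the same reads, 0 positions were called as well and 256 had an unadjusted p under 0.05, with 0 sites among them. With an offset for each library's error level in the logistic model, 8 sites and 675 positions had an unadjusted p under 0.05. None was called there, and the lowest adjusted p of the sites was 0.239 in that model.

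Ψ776 showed the largest differences. Its mismatch level in replicates 1 and 2 was 46.7% and 48.4% for F1. It was 60.2% and 58.5% for F2, 58.2% and 69.1% for F3, then 67.1% and 61.7% for F4. The F1 libraries were below all the others and the remaining fractions overlapped. The group means differed from F1 by 11.8 points in F2, 16.1 points in F3 and 16.9 points in F4. The log odds ratio was 0.51 ± 0.31 (SE) for F2, 0.50 ± 0.31 (SE) for F3 and 0.60 ± 0.31 (SE) for F4. None passed the threshold, with adjusted p = 1.00, adjusted p = 1 and adjusted p = 0.831 in the logistic model. F1 had 45 and 31 reads at Ψ776, and its Wilson intervals were 32.9% to 60.9% and 32.0% to 65.2%. Each of these overlaps the intervals of both F2 libraries.

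Both libraries lay above both F1 libraries at 2 sites (Ψ776 and Ψ1052) in each of F2, F3 and F4, against 10.7%, 11.4% and 8.51% of 1410 uridines. Both lay below F1 at none in F2 and F3, against 23% and 21.6% of uridines, and at Ψ1110 in F4, against 20.7%. Ψ1052 had at most 26.1% mismatches in the F1 libraries and 29.8% to 34.6% in those of the other fractions. Ψ1110, which had the lowest p among the sites in the test of any difference (adjusted p = 0.293 in the logistic model), had mismatch levels of 8.70% and 10.0% for F1 and 9.66% and 8.70% for F2. They were 7.32% and 9.36% for F3, and 3.61% and 7.08% for F4. The F4 library at 3.61% had 83 reads over the site. Within a fraction Ψ1004 spread most, with 39.6% of 48 reads and 62.9% of 35 reads in the F1 libraries.

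**Figure D4:**
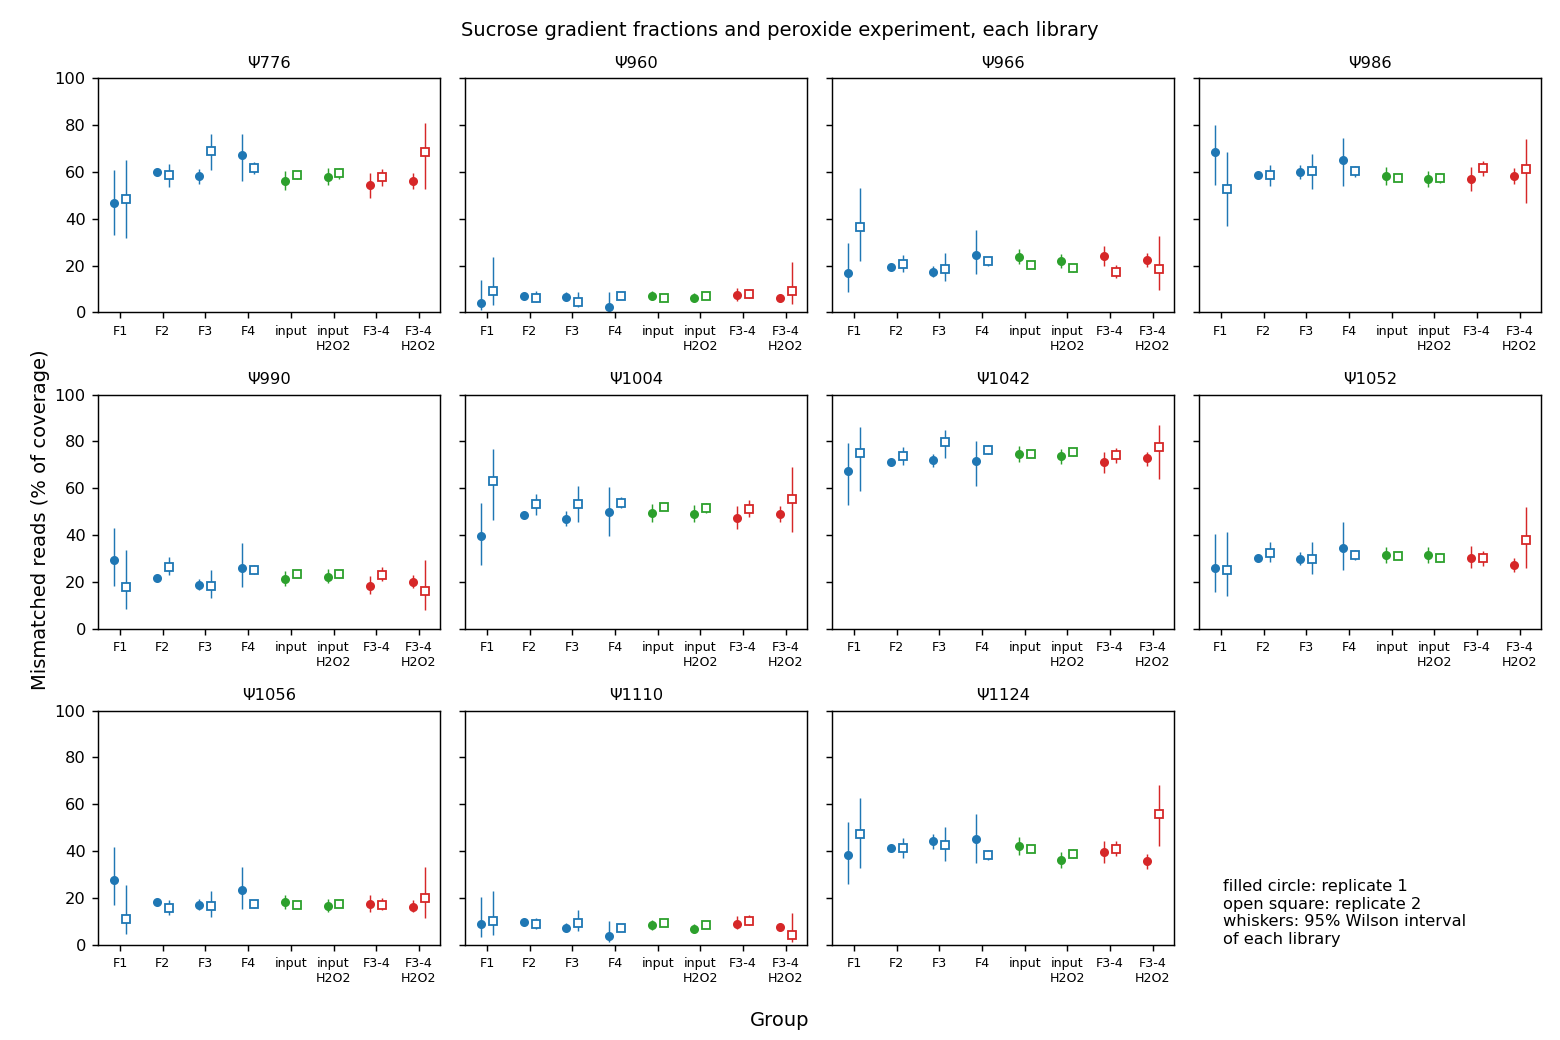
Mismatch level (percent of reads) at each pseudouridine in both libraries of every fraction and of every group of the peroxide experiment (whiskers, 95% Wilson interval of each library). Intervals are widest for F1 and for replicate 2 of peroxide-treated fractions 3-4, and at Ψ776 the F1 libraries (46.7% and 48.4%) lie below the others.

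Hydrogen peroxide at 1 mM for 30 min addressed whether oxidative stress changes rRNA modification. No pseudouridine of domain II changed at an adjusted p under 0.05, in input or in fractions 3-4, and 0% of the 5425 positions tested were called in any of these comparisons. At an unadjusted p under 0.05, 173 positions were different in input and 157 in fractions 3-4, and none of the 11 sites was among them. With limma these counts were 71 and 275 positions.

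In input, the site differences ranged in size from 0.0435 to 4.09 points. Their median was 0.585 points against 0.314 points over all uridines, again at unlike mismatch levels and so not directly comparable. Standard errors of the log odds ratios were 0.050 to 0.099. The largest difference was at Ψ1124, with 42.1% and 41.0% in untreated input and 36.1% and 38.9% after peroxide. Both treated libraries were lower there, which held for 1 of 11 sites and 6.56% of 1434 uridines. The log odds ratio was -0.13 ± 0.06 (SE), with adjusted p = 0.998 in the logistic model. No site was higher in both treated libraries, against 18.1% of uridines.

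In fractions 3-4 the largest difference between group means was 6.32 points at Ψ776, where untreated libraries had 54.4% and 57.7% and treated libraries 56.3% and 68.4%. The 68.4% came from 38 reads, and the log odds ratio, which weights libraries by their reads, was 0.01 ± 0.10 (SE). It was 0.51 without treated replicate 1. Ψ1110 had the lowest p of the sites (adjusted p = 1 in the logistic model), with 9.04% and 10.3% in untreated and 7.38% and 4.00% in treated libraries. It was the only site with both treated libraries lower, against 13.9% of uridines, and none had both higher, against 9.97%.

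No difference of the peroxide effect between fractions 3-4 and input was called, with adjusted p = 1 at all 11 sites in the logistic model, where 140 positions had an unadjusted p under 0.05. Ψ1124 had the largest difference of differences, 9.55 points between group means, but its fitted log odds ratio had the opposite sign, -0.03 ± 0.14 (SE). Its treated libraries of fractions 3-4 had 35.6% of 832 reads and 55.8% of 52 reads, so the mean over libraries and the fit weighted by reads are set by different libraries. Without replicate 1 of these libraries the log odds ratio was 0.74, and without replicate 2 it was -0.08. The lowest p was that of Ψ960, whose log odds ratio was -0.30 ± 0.21 (SE).

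Between fractions 3-4 and input of untreated cells, differences were 0.279 to 2.06 points in size. Ψ1042 differed most, with 71.3% and 74.1% in fractions 3-4 and 74.8% and 74.7% in input. Both fraction libraries were lower at Ψ1042, Ψ1052 and Ψ1124 (10.4% of uridines) and higher at Ψ960 (19% of uridines). After peroxide both were lower at Ψ990 (14.4% of uridines) and higher at Ψ986 (8.93% of uridines), and the lowest p was that of Ψ990 (adjusted p = 0.997 in the logistic model). After peroxide the largest difference of group means was 8.18 points, at Ψ1124, where the log odds ratio was -0.06 ± 0.11 (SE). The median over the sites was -1.32 points in untreated and 1.12 points in treated cells, and over all uridines 0.133 and 0.132 points. The sign in treated cells rested on replicate 2 of fractions 3-4, with 38 to 52 reads per site. Without that library, left out after the data were seen, the median was -1.39 points with 9 of 11 sites lower, and the log odds ratio from both libraries was negative at 9 of 11 sites. In untreated cells the median was 0.195 points without replicate 1 of fractions 3-4, with 5 of 11 sites lower, so its sign also rested on 1 library. Without replicate 2 it was -0.968 points with 8 of 11 sites lower. The log odds ratio from both untreated libraries was negative at 7 of 11 sites. No call was made in either comparison, and an unadjusted p under 0.05 was reached by 114 positions in untreated and 191 in treated cells. With limma these were 119 and 166.

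Ionic current gave a further readout of the sites. The 11 sites are covered by 53 different 5-mers, all measured in the 8 strain libraries. The number of reads behind each level is unknown. Among replicate 1 libraries, levels over these 5-mers differed from WT by a mean of 0.0721 pA in snR3KO, 0.126 pA in snR34KO and 0.121 pA in snR36KO, with 1.09 pA as the largest difference. WT replicate 2 stood apart, with a mean difference of 2.12 pA from WT replicate 1 over the 53 5-mers and 2.18 pA over all 5158, whereas replicates of the deletion strains differed by 0.619 to 1.53 pA.

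With limma on current levels of both replicates, 0 of 53 5-mers over the sites and 0% of 5158 5-mers were called different from WT in snR3KO, snR34KO or snR36KO. Unadjusted p under 0.05 was reached by 18, 17 and 15 of 5158 5-mers, none of them over a domain II site. No call was made over the sites guided by the deleted snoRNAs either, where mismatches were lower in the strain lacking the guide. The absence of calls therefore cannot show whether current over the domain II sites was unchanged. The lowest p for snR3KO was at TGAGG, with Ψ990 as its first base, at 112.8 ± 0.783 pA (SD, n = 2) against 111.6 ± 0.951 pA in WT (adjusted p = 0.737 by limma). For snR34KO it was at GATTT with Ψ776 in the middle, 91.2 ± 1.29 pA (SD, n = 2) against 93.3 ± 1.35 pA (adjusted p = 0.930 by limma). For snR36KO it was at AATGA with Ψ1004 in the middle, 88.6 ± 1.19 pA (SD, n = 2) against 92.3 ± 3.85 pA (adjusted p = 0.709 by limma). Calls depended on the WT library. Without WT replicate 1, so that WT replicate 2 alone stood for wild type and was assumed to vary like the other groups, 10, 8 and 9 of the 53 5-mers were called for snR3KO, snR34KO and snR36KO, beside 19.6%, 13.6% and 20.5% of all 5-mers. Without WT replicate 2 none was.

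To see whether current at the sites departs from that of the same letters without a listed modification, each 5-mer over a site was set against its copies elsewhere in the rRNA, all of whose bases lie at least 6 positions from any listed site. In WT replicate 1, 12 of the 47 5-mers with at least 2 copies (25.5%) departed by 3 pA or more, 7 lower and 5 higher. Among 3905 unmodified 5-mers compared with their own copies 15.4% departed as far. Of the 47, 23 lay outside the range of their copies, as did 1482 of the 3905 unmodified 5-mers. The largest departure of each site, given below, was picked from the 5-mers over it. Shares of single 5-mers are therefore not a background for it. The size of 3 pA was chosen after the values were seen, and there is no test.

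The largest departure was at Ψ1042, where TATTC, with the pseudouridine just before its final base, read 88.4 pA in WT replicate 1. Its 3 copies read 94.6 to 98.7 pA, so the difference was -7.88 pA, and it was between -13.1 and -7.71 pA over the 8 libraries. At Ψ960, TCAGG read 97.5 pA against 90.0 to 93.3 pA in 7 copies, and the difference from their mean was 4.18 to 7.73 pA over 8 libraries. AATGA over Ψ1004 was 5.88 pA above the mean of 9 copies (3.79 to 9.31 pA), and ATGAG over Ψ990 differed from the mean of its 2 copies by -5.67 pA, at 88.9 against 94.6 pA. AGTTT over Ψ986 differed from the mean of its copies by -4.44 pA, at 120.7 against 125.2 pA. ATATG over Ψ1056 lay 3.52 pA above, at 86.1 against 82.6 pA. These 6 departures had the same sign in all 8 libraries, as did 10 of the 12 of at least 3 pA. CCTCA over Ψ960, 4.69 pA above its 2 copies in WT replicate 1, ranged from -1.26 to 4.84 pA and kept its sign in 6 of 8. The replicate 1 libraries lay close together, so their signs are not separate evidence. How often unmodified 5-mers keep their sign was not counted.

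Current and base-call errors ranked the sites differently. Ψ776, with the second highest mismatch level, departed by at most 1.38 pA in WT replicate 1 (ATTTG, 81.4 pA, inside the 78.0 to 81.9 pA of its 11 copies). Ψ960, with the lowest mean mismatch level (below Ψ1110 by less than the SD of their difference), had the next largest departure after Ψ1042. For Ψ966 the largest departure was 3.12 pA at GATAG, and it had the same sign in 7 of 8 libraries. For Ψ1124 it was -2.67 pA at TTTTT, with the same sign in 7 of 8 libraries. For Ψ1052 it was 1.68 pA at TAAAT, which also holds Ψ1056 as its last base. The 5-mers with at least 2 copies that hold Ψ1052 alone departed least far at CTTTA, by 0.305 pA, and farthest at ACTTT, by -0.556 pA. For Ψ1110 it was -2.27 pA at TTAGT, inside the range of its 7 copies and negative in 8 of 8 libraries.

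**Figure D5:**
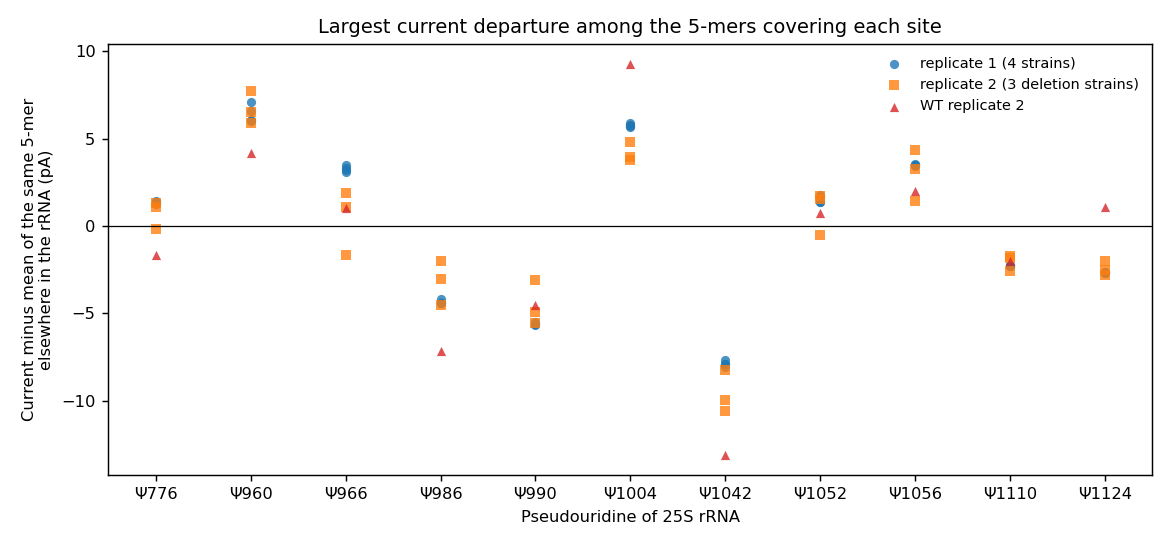
Current of the 5-mer with the largest departure at each pseudouridine minus the mean of the same 5-mer elsewhere in the rRNA (pA), in 8 strain libraries. Ψ1042, Ψ986 and Ψ990 lie below 0 and Ψ960, Ψ1004 and Ψ1056 above 0 in all 8, and WT replicate 2 is the lowest point at Ψ1042 (-13.1 pA). The 5-mer shown for Ψ1052 also holds Ψ1056.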

How the data were processed

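The members and the lists used were chosen with earlier results of these data known. Per the file headers, the deposited error tables (named for EpiNano) give for each rRNA position the coverage as a count of reads, the mean base quality as a score, and mismatch, insertion and deletion each as a fraction of the coverage, from which the numbers of reads were recovered as whole numbers at 100% of positions (tolerance 0.001). Coverage includes deleted reads. The current tables, deposited as named for Nanopolish, hold a mean event level per 5-mer, a signal in pA. Which aligner, base caller and filters were used is not stated in the labels or headers. The 25S reference has 3396 bases, the length of RDN25-1 in the R64 gene table, and no genome coordinates are given.

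A list of 113 modified sites (56 2′-O-methylated, 45 Ψ, 12 other) was compiled from general knowledge, and all reference bases matched. Of 24 libraries in 12 groups, 20 have error tables and 8 current tables. Positions needed 20 reads in every library of a comparison. Mismatched reads were fitted with a quasi-binomial logistic model in R 4.3.3, with dispersion moderated by limma 3.58.1 (squeezeVar, floored at 1), and current with lmFit and eBayes. P-values were Benjamini-Hochberg adjusted over all positions or 5-mers. The scripts were tested on simulated data. Unadjusted p-values are given only as counts, and 2 libraries per group limit every test. Python 3.11.15, numpy 2.4.6, pandas 2.3.3 and matplotlib 3.10.9 were used otherwise.

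Same-numbered libraries deviated together in the fractions (correlations 0.138 to 0.299 over 3307 positions) and in the current tables (0.146 to 0.519), and less so in the peroxide experiment (-0.00749 to 0.172). The named positions were all 11 sites, the highest mismatch, insertion and deletion of at least 10% within 5 bases in WT replicate 1, and per comparison the site or 5-mer with the largest difference or lowest p.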

Additional observations from a re-analysis of the deposited data

How the results depend on the processing

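No site was called in any of the 9 comparisons of fractions and peroxide under the alternatives run (at least 50 reads, limma on logits, replicate block, insertions, deletions or all errors summed in place of mismatches, and an offset for each library's error level), nor without any library. With the replicate block 0 sites were called, as without it, and no other call changed. With at least 50 reads no site could be fitted in the fractions, and 4 of 11 in the peroxide experiment. In those comparisons positions elsewhere were called only without F4 replicate 1 (191) or F2 replicate 2 (404), without replicate 1 of peroxide-treated fractions 3-4 (30 and 37) and with the offset (2 and 5). With the replicate block 1 of 5158 5-mers was called for snR3KO, not over a site. For the current tests, calls over the sites without 1 library ranged from 0 to 10 for snR3KO, 0 to 8 for snR34KO and 0 to 9 for snR36KO, the highest without WT replicate 1. With size rules of 5 or 20 points, the other reference or summed errors, no strain difference was counted.

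Log odds ratios named in the report, none of them called, turned sign as follows, and the cause was not tested. The difference of peroxide effects at Ψ1124 was 0.38 with limma, 0.0018 with the replicate block and 0.14 with the offset, and -0.084 to 0.74 without 1 library. At Ψ960 it was 0.032 with limma and -0.33 to 0.14 without 1 library, positive without replicate 1 of peroxide-treated fractions 3-4. Fractions 3-4 against input after peroxide at Ψ1124 was 0.33 with limma, 0.048 with the offset and -0.11 to 0.71 without 1 library. Peroxide in fractions 3-4 at Ψ776 was -0.034 to 0.51 without 1 library.

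Site levels depended on the definition. With deletions left out of the denominator the mean was 47.6% at Ψ960, 93.1% at Ψ1042, 59.6% at Ψ1052 and 49.2% at Ψ1124. With all errors summed it was 70.8% at Ψ776, 93.6% at Ψ960, 65.0% at Ψ966, 71.2% at Ψ986, 46.9% at Ψ990, 74.5% at Ψ1004, 97.7% at Ψ1042, 87.3% at Ψ1052, 47.8% at Ψ1056, 19.0% at Ψ1110 and 70.2% at Ψ1124. The median over the sites of fractions 3-4 minus input after peroxide turned from 1.12 to -1.39 points without replicate 2 of the treated fractions, and was 3.01 without replicate 1. In untreated cells it turned from -1.32 to 0.195 without replicate 1 and was -0.968 without replicate 2. Both are an alternative added after the data were seen. Against the median of its copies the current departure at Ψ1110 was -2.94 pA. The other 61 values of site level and current departure under an alternative moved by less than 1 SD between libraries.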
